A study of Mus musculus with 13 samples.

Results

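The genes described here make cholesterol or control how much of it is made. There were 29 of them among the 27141 genes listed in the count and FPKM tables, chosen by gene symbol from the known pathway. All 29 had enough counts to be tested, among 19884 genes tested. RNA was sequenced from damaged hepatocytes (dHeps) that had been cultured for 16 days in a serum-free hepatocyte medium. The cells came from adult wild-type C57BL/6 mice with chronic liver injury caused by repeated carbon tetrachloride (CCl4), so every group, the DMSO control included, carried that injury. The groups were DMSO (the solvent), 5C (all 5 compounds) and 5C with 1 compound left out. 5C-G lacked the ROCK inhibitor GSK429286A, 5C-C the protein kinase D inhibitor CID755673, 5C-E the AMPK activator ETC-1002, 5C-F the adenylate cyclase activator forskolin, and 5C-S the plant glycoside Salidroside. There was 1 library for 5C-S and there were 2 for each other group, 13 libraries in 7 groups altogether. The libraries of a group are called A and B, by the order of the columns, and no label pairs them across groups. In the 4 removal groups with 2 libraries, 5 of the 29 genes (Mvk, Pmvk, Mvd, Tm7sf2 and Nr1h2) had a higher FPKM in B than in A each time and 5 (Idi1, Insig2, Lpin1, Sc5d and Stard4) a lower one. Whether the B libraries share a batch was not tested.

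Cholesterol is built from acetyl-CoA. The mevalonate arm makes isoprene units, squalene synthase joins them into squalene, and a series of oxidases, reductases and isomerases turns lanosterol into cholesterol. When sterols run low in the endoplasmic reticulum, SCAP carries the transcription factor SREBP2 to the Golgi, where it is cut and released to switch on nearly every enzyme of the pathway, while INSIG proteins hold the SCAP complex back when sterols are plentiful. The LXR receptors sense oxysterols and work in the opposite sense, towards removal of cholesterol and lower uptake. The liver is a main site of this synthesis. ETC-1002 (bempedoic acid) is also known, once joined to CoA, to inhibit ATP citrate lyase, the enzyme that supplies the acetyl-CoA.

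Total counts per library ran from 30195867 to 45491932, and every member but Fdps had at least 264 counts in every library. Fdps (farnesyl diphosphate synthase), with 41 to 202 counts, was the thinly covered exception, and its reads can be shared with near-identical copies in the genome, so its values are uncertain. Paired libraries of a group were further apart than sampling of reads allows, with a chi-square per degree of freedom of 8.01 in DMSO, 14.1 in 5C and 28.9 to 86.6 in the other groups. The study's methods describe its replicates as biological ones, and the labels do not say whether the libraries of a group came from separate animals or cultures, so p-values measure the spread between these libraries. All 8 hepatocyte marker genes checked had counts in every library, and their summed FPKM ran from 2381 in 5C-E B to 18770 in 5C-F A. In bulk RNA, fewer cells of a type and less RNA per cell cannot be told apart.

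Promoters of sterol genes are known to bind SREBP2 together with NF-Y and GC box factors. The promoters of 4 members with a single listed start are shown, and a link between their motifs and expression was not tested. Hmgcs1 was the one of the 24 members searched with the classic sterol regulatory element. Idi1 fell without the ROCK or the protein kinase D inhibitor, and Mvk and Ebp rose there. Each line gives the 200 bases before the start of transcription, 5′ to 3′, from RefSeq on the build GRCm38.p6. The positions are chr13:119690151-119690350 (+ strand) for Hmgcs1, chr13:8885406-8885605 (+) for Idi1, chr5:114444069-114444268 (+) for Mvk and chrX:8193513-8193712 (- strand) for Ebp. Capitals mark every match, on either strand, to the sterol regulatory element TCACNCCAC, the NF-Y box CCAAT, which from the other strand reads as ATTGG in the lines below, and the GC box GGGCGG, which from the other strand reads as CCGCCC there.
Hmgcs1: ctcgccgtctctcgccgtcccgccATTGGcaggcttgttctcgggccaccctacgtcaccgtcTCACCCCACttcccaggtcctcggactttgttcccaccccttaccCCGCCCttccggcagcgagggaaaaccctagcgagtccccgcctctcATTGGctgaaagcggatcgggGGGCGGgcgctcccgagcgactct
Idi1: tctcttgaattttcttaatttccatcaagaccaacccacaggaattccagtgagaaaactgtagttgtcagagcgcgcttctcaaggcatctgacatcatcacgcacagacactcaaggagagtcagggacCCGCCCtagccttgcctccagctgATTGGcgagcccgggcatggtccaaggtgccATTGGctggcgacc
Mvk: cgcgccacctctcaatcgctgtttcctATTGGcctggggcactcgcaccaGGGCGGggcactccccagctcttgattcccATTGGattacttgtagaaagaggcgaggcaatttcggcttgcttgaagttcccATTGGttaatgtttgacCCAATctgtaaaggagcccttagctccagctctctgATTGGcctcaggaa
Ebp: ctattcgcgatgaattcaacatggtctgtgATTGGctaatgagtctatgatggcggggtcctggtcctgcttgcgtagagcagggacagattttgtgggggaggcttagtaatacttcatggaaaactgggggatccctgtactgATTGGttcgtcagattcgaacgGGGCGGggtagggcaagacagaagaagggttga
Within these 200 bases Hmgcs1 had 1 sterol regulatory element, 2 CCAAT boxes and 2 GC boxes. Mvk had 5 CCAAT boxes and 1 GC box, and Idi1 and Ebp each had 2 CCAAT boxes and 1 GC box.

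The RefSeq promoter table, with 250 bases before and 50 bases after each start, held 24 of the 29 members with 31 promoters, and Fdft1, Fdps, Soat2, Sqle and Stard4 were not matched. CCAAT, read on both strands, was present in 19 of the 31 member promoters and in 37.4% of all 32851 promoters. GGGCGG was present in 23 of the 31 and in 35.7% of all. CACGTG, the E-box form that SREBP proteins can also bind and that reads the same on both strands, was present in 6 of the 31 and in 7.15% of all, and its 5 genes were Dhcr7, Hsd17b7, Insig1, Sc5d and Scap. The spelled sterol element TCACNCCAC was found in the Hmgcs1 promoter alone and in 1.24% of all promoters. A match is a run of letters and not a measured binding site, and the absence of a match says only that these letters are not in the window. Some of these spellings can share end letters, but among the 92 matches in the 31 member promoters no pair of matches to different motifs overlapped.

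The level of the pathway was read from FPKM (fragments scaled by gene length and library size), which can be compared between genes. Insig2, with a mean of 44.4 FPKM over the 13 libraries, Insig1 with 41.2, Hmgcs1 with 38.7, Fdft1 with 35.2, Acat2 with 33.4 and Cyp51 with 33.2 were the most abundant members. Fdps at 0.771, Soat2 at 5.40 and Lss at 5.69 were the least abundant over the 13 libraries. In 5C-C the means of Hsd17b7 (3.10), Idi1 (3.43) and Lpin1 (4.26) were below those of Lss (4.38) and Soat2 (5.64). The order at the top also differed between groups. In 5C-C both libraries of Fdft1 (mean 50.2 FPKM), Nr1h2 (46.7) and Acat2 (42.9) were above those of Insig2 (31.4), Insig1 (30.2) and Hmgcs1 (26.8), and in DMSO those of Insig1 (41.2) and Soat1 (35.9) were above those of Insig2 (34.05). Summed over the 18 sterol enzymes, FPKM was 252.1 and 249.8 in DMSO and 356.2 and 325.9 in 5C. The 5C-G libraries were at 308.8 and 275.6, the 5C-C libraries at 336.4 and 369.6, the 5C-E libraries at 363.4 and 410.9, the 5C-F libraries at 381.6 and 367.1 and the 5C-S library at 318.1. The DMSO libraries were the lowest of the 13 for this sum. Over the 6 groups with 2 libraries, 23 of the 29 members differed by edgeR's F test, against 45.6% of all genes tested. The members that did not pass were Nsdhl (adjusted p = 0.0528), Insig1 (0.0503), Msmo1 (0.0893), Fdps (0.126), Scap (0.276) and Dhcr7 (0.534).

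**Figure D1:**
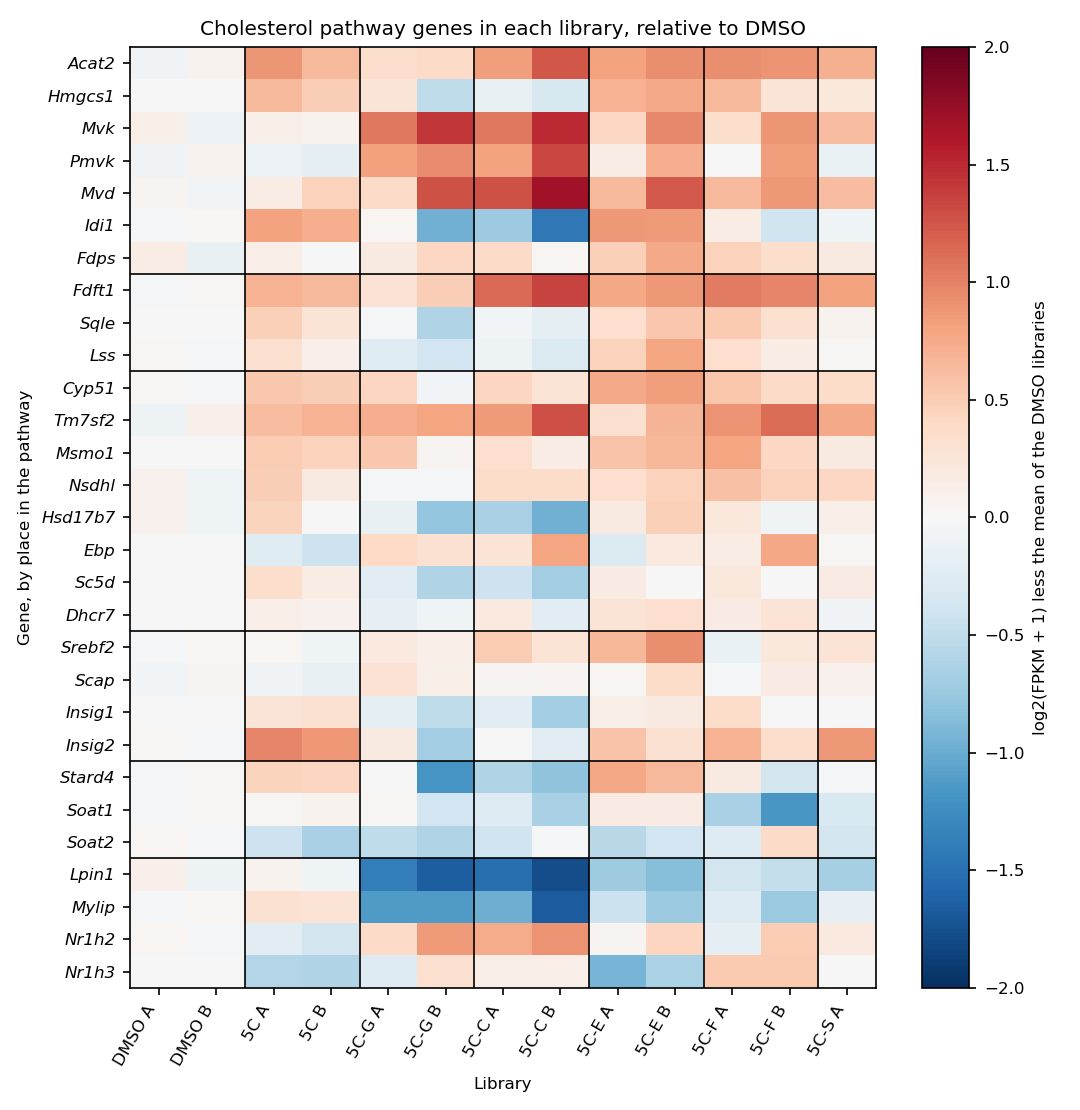
Level of each of the 29 genes (rows, in pathway order, lines between roles) in each of the 13 libraries (columns), as log2(FPKM + 1) less the mean of the 2 DMSO libraries. Most enzyme rows are red in both 5C libraries, while in 5C-G and 5C-C the Mvk and Pmvk rows are red and the Idi1, Lpin1 and Mylip rows are mostly blue.

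The first comparison asked what the whole cocktail did to the pathway relative to the solvent. Nearly all enzymes had higher values in 5C, but few passed the test. Acat2, Fdft1 and Insig2 rose and no member fell, where a call is an adjusted p under 0.05 with a log2 fold change beyond 0.5 in edgeR's quasi-likelihood test. Of all genes tested, 2.25% rose and 4.09% fell in this comparison. Of the 18 enzymes, 16 had a positive log2 fold change, with a median of 0.285, against a median of 0.00766 over all genes tested.

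Acat2, the cytosolic thiolase that joins acetyl-CoA units at the head of the pathway, was at 19.1 and 21.0 FPKM in DMSO and at 37.8 and 32.2 in 5C. Both 5C libraries were above both DMSO libraries, and the log2 fold change was 0.73 ± 0.19 (SE, adjusted p = 0.0235). Fdft1, squalene synthase, the first enzyme committed to sterols, was at 20.2 and 20.8 FPKM in DMSO and at 33.9 and 32.7 in 5C, a log2 fold change of 0.62 ± 0.18 (adjusted p = 0.0413). Insig2, a holder of the SCAP complex, was at 34.8 and 33.3 FPKM in DMSO and at 68.1 and 63.2 in 5C, a log2 fold change of 0.87 ± 0.22 (adjusted p = 0.0198). Its 5C libraries were the highest and the second highest of the 12 libraries in replicated groups. Idi1, the isopentenyl diphosphate isomerase, had a fold change as large as that of Acat2, at 0.76 ± 0.31, but did not pass (adjusted p = 0.188). Tm7sf2, a sterol reductase, at 0.67 ± 0.21 (adjusted p = 0.0738), and Nr1h3, which encodes LXR alpha, at -0.73 ± 0.23 (adjusted p = 0.071), did not pass either.

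With any of the 4 libraries of this comparison left out, no member was called, while the log2 fold changes stayed at 0.62 to 0.83 for Acat2, 0.61 to 0.64 for Fdft1 and 0.84 to 0.92 for Insig2. In these fits 1 group has a single library. In a fit with an offset for the GC content and length of each transcript, the 3 were kept and Tm7sf2 (0.83 ± 0.17, adjusted p = 0.00432) and Nr1h3 (-0.61 ± 0.18, adjusted p = 0.0453) were called as well, so that 4 were higher and 1 lower, against 3.35% and 4.75% of all genes in that fit. The summed FPKM of 12 macrophage markers was 5195 and 5259 in DMSO and 608.5 and 690.2 in 5C, and its part in these differences was not tested.

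Each removal was then compared with 5C to ask which genes depend on that compound. All 4 comparisons use the same 2 libraries of 5C, so they are not independent of each other or of the comparison above. Without the ROCK inhibitor (5C-G), 5 members rose and 8 fell, against 13.9% and 11.4% of all genes tested. Without the protein kinase D inhibitor (5C-C), 9 rose and 9 fell, against 16.9% and 18.2%. Without ETC-1002 (5C-E), 1 rose and 2 fell, against 1.18% and 1.76%. Without forskolin (5C-F), 2 rose and 1 fell, against 5.68% and 4.98%. With the GC and length offset, 4 members were higher and 4 lower in 5C-G, where 11.6% and 7.7% of all genes were called in that fit. In 5C-C these were 5 and 5, against 12.6% and 10.9%. In 5C-E they were 0 and 2, against 1.33% and 2.43%, and in 5C-F 2 and 2, against 5.56% and 4.42%.

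**Figure D2:**
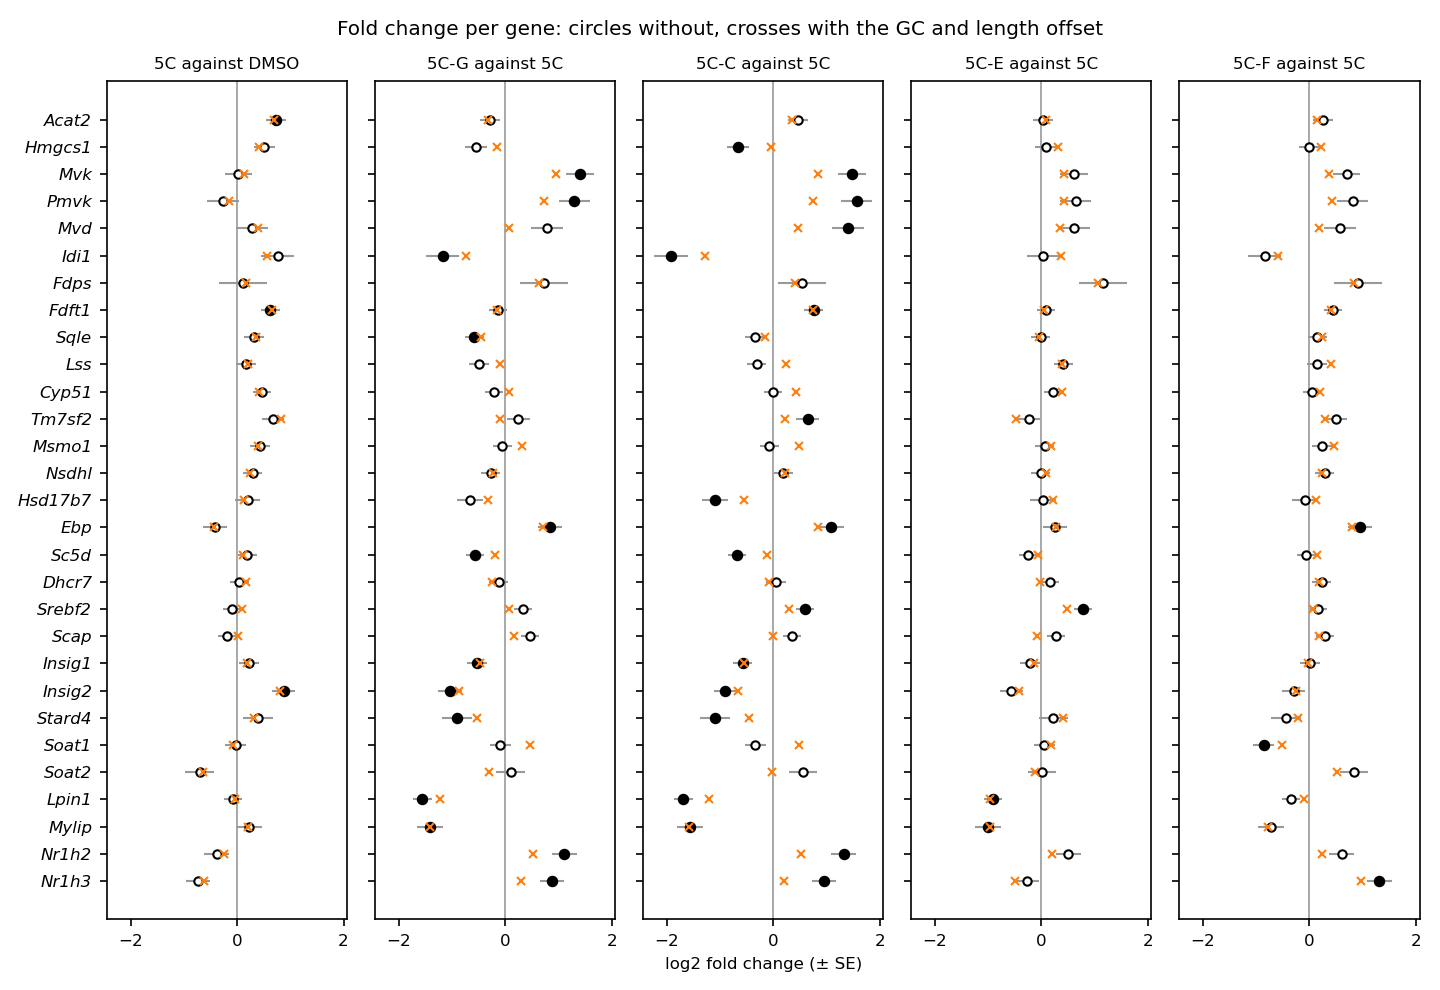
The log2 fold change (x axis) of each of the 29 genes (y axis, pathway order) in 5 comparisons. Circles with bars are the edgeR estimate ± SE, filled where called, and crosses are the estimate with the GC and length offset. In 5C-G and 5C-C, Mvk and Pmvk lie above 0.7 and Lpin1 and Mylip below -1.2 with either estimate, while the crosses of Mvd and Sc5d lie nearer 0 than their circles.

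The enzymes of the mevalonate arm did not move together when the ROCK or the protein kinase D inhibitor was left out. The 2 kinases that phosphorylate mevalonate in sequence rose and the isomerase Idi1 fell. Mvk (mevalonate kinase, chr5:114582267-114601803, GRCm39) was at 7.70 and 7.34 FPKM in 5C, at 15.5 and 20.6 in 5C-G and at 15.5 and 21.5 in 5C-C. All 4 libraries of 5C-G and 5C-C were above all libraries of DMSO, 5C, 5C-E, 5C-F and 5C-S, whose highest value was 14.5 in 5C-E B. The log2 fold change was 1.41 ± 0.26 in 5C-G (adjusted p = 0.00104) and 1.47 ± 0.26 in 5C-C (adjusted p = 0.000452), and 0.95 ± 0.19 and 0.84 ± 0.19 with the offset, both still called. Pmvk (phosphomevalonate kinase) was at 6.21 and 5.83 FPKM in 5C, at 12.8 and 14.1 in 5C-G and at 12.7 and 18.9 in 5C-C, with log2 fold changes of 1.30 ± 0.30 (adjusted p = 0.00426) and 1.56 ± 0.30 (adjusted p = 0.00073). With the offset Pmvk stood at 0.72 ± 0.22 and 0.74 ± 0.22, called in both, and without 5C B its adjusted p in 5C-G was 0.0511. In 5C-E and 5C-F the B library was above the A library for both kinases (Pmvk 7.74 and 12.0 FPKM in 5C-E, 6.89 and 12.97 in 5C-F), and neither kinase was called there.

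Idi1 (chr13:8935537-8942487, GRCm39), which makes the reactive isoprene unit, ran the other way. It was at 7.93 and 8.21 FPKM in DMSO, at 14.8 and 14.1 in 5C, at 8.29 and 3.65 in 5C-G, at 4.51 and 2.35 in 5C-C, at 15.5 and 15.3 in 5C-E, at 9.10 and 5.88 in 5C-F and at 7.57 in the 5C-S library. The 5C and 5C-E libraries formed the upper end and did not overlap with any other group. The log2 fold change against 5C was -1.17 ± 0.31 in 5C-G (adjusted p = 0.0105) and -1.92 ± 0.32 in 5C-C (adjusted p = 0.000259). With the offset it was -0.73 ± 0.23 and -1.28 ± 0.24, and both calls were kept. The 5C-F value of -0.84 ± 0.31 did not pass (adjusted p = 0.0891), and in 5C-E it was 0.03. In 5C-G the call was lost without 5C-G B or without 5C A, with a highest adjusted p of 0.149 over the alternatives.

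Among the remaining enzymes of this arm, Hmgcs1 (HMG-CoA synthase, the enzyme before the rate-limiting reductase) was at 50.1 and 45.0 FPKM in 5C and at 28.4 and 25.2 in 5C-C. It fell by 0.66 on the log2 scale in 5C-C (SE 0.20, adjusted p = 0.0174), but with the offset its value was -0.05 and it was not called. In 5C-G its libraries A and B were at 38.1 and 21.9 FPKM, and it did not pass (adjusted p = 0.0565). Mvd, the decarboxylase that follows Pmvk, was at 9.90 and 12.6 FPKM in 5C and at 22.7 and 30.3 in 5C-C, a log2 fold change of 1.41 ± 0.30 (adjusted p = 0.00171) that stood at 0.47 ± 0.21, not called, with the offset. Acat2 was not called against 5C in any removal. Its highest library was 5C-C B, at 49.1 FPKM.

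Squalene synthase, Fdft1, responded to removal of the protein kinase D inhibitor with a further rise. It was at 46.3 and 54.2 FPKM in 5C-C, above all other libraries, the highest of which was 43.1 in 5C-F A. Against 5C the log2 fold change was 0.76 ± 0.18 (adjusted p = 0.00283) and 0.74 ± 0.15 with the offset. In 5C-G, by contrast, Fdft1 was at 25.4 and 29.4 FPKM, both below both 5C libraries, and was not called at -0.14. Sqle, the squalene epoxidase and a rate-limiting step, was at 32.8 and 28.6 FPKM in 5C and at 22.7 and 15.0 in 5C-G. It fell by 0.58 on the log2 scale (SE 0.18, adjusted p = 0.0239), and with the offset its -0.45 ± 0.15 was within the fold limit. Lss, which closes the ring to lanosterol, was called in no comparison with 5C, and its highest values were 7.46 and 9.59 FPKM in 5C-E.

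Of the 8 enzymes that turn lanosterol into cholesterol, Ebp (the sterol isomerase also known as emopamil binding protein) was the one called against 5C with and without the offset. Ebp was at 16.4 and 14.6 FPKM in 5C, at 26.3 and 24.3 in 5C-G, at 23.9 and 34.5 in 5C-C, at 16.1 and 22.7 in 5C-E and at 21.8 and 34.4 in 5C-F. It was at 19.7 and 19.6 in DMSO, so that 5C-G and 5C-C libraries were above those of both DMSO and 5C. It rose by 0.84 ± 0.23 in 5C-G (adjusted p = 0.0132), by 1.09 ± 0.23 in 5C-C (adjusted p = 0.00168) and by 0.95 ± 0.23 in 5C-F (adjusted p = 0.0172), all log2 fold changes. With the offset the values were 0.72, 0.85 and 0.80, all called. Leaving out libraries ended the call in 5C-G (highest adjusted p 0.13) and 5C-F (highest adjusted p 0.176), but not in 5C-C.

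Other enzymes of this stretch were called only without the offset. Hsd17b7, a keto-reductase of sterol demethylation, was at 8.76 and 6.11 FPKM in 5C and at 3.54 and 2.67 in 5C-C, a log2 fold change of -1.10 ± 0.25 (adjusted p = 0.00232) that became -0.56 ± 0.20 (adjusted p = 0.0536). Sc5d, a sterol desaturase, was at 25.3 and 21.8 FPKM in 5C, at 16.5 and 12.6 in 5C-G and at 14.4 and 11.7 in 5C-C. Its log2 fold changes of -0.57 ± 0.18 (adjusted p = 0.0242) and -0.68 ± 0.18 (adjusted p = 0.00583) became -0.20 and -0.12. Tm7sf2 was at 9.07 and 9.58 FPKM in 5C and at 10.8 and 15.1 in 5C-C, a log2 fold change of 0.64 ± 0.21 (adjusted p = 0.0236) that became 0.21. Cyp51 (the lanosterol demethylase, 23.7 to 45.1 FPKM over the libraries), Msmo1 (the methyl sterol oxidase, 21.0 to 37.2), Nsdhl (the sterol dehydrogenase, 13.2 to 21.6) and Dhcr7 (the reductase of a last step, 6.80 to 10.5) were not called in any comparison with 5C.

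**Figure D3:**
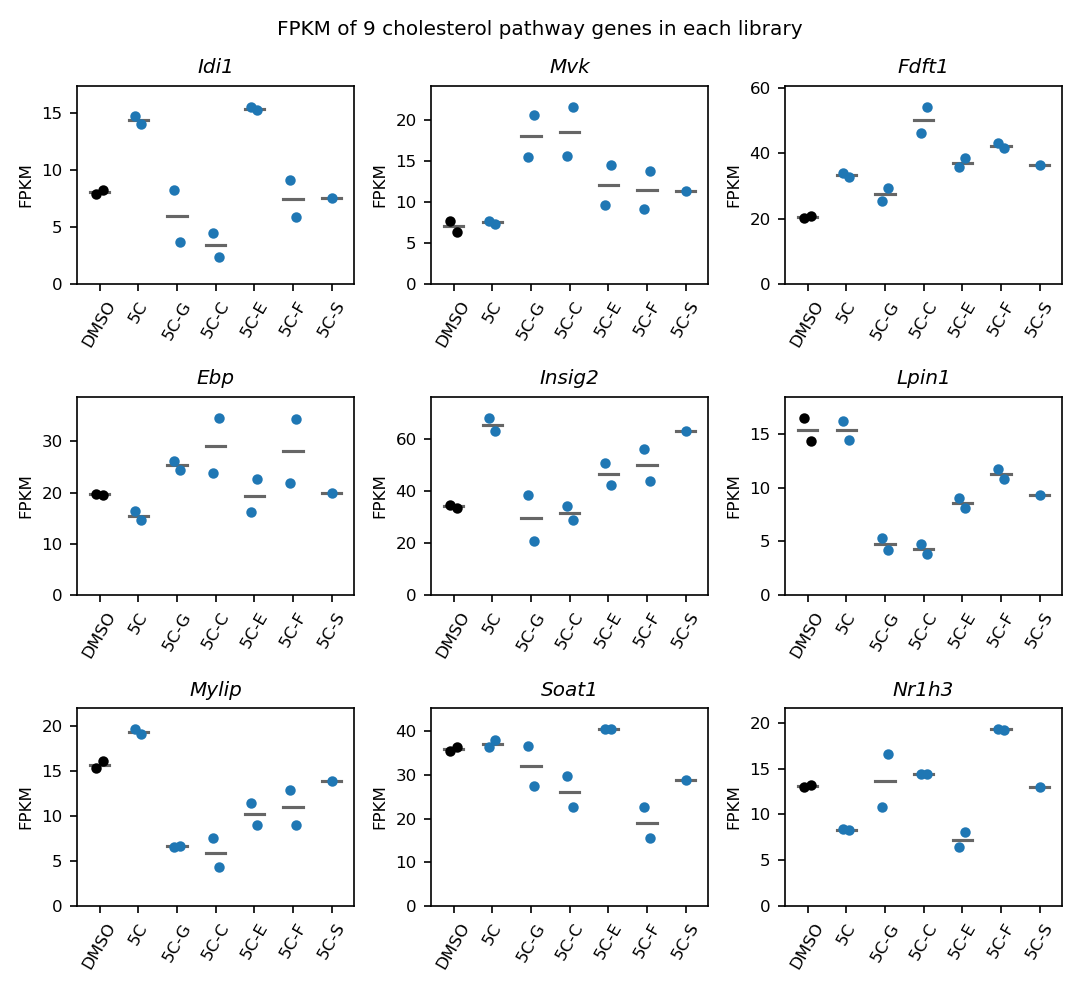
FPKM (y axis, from 0) of 9 genes in the libraries of each group (x axis); points are libraries, DMSO in black, and bars are group means. Lpin1 and Mylip are lowest in 5C-G and 5C-C, Insig2 is highest in 5C and 5C-S, and Nr1h3 is highest in 5C-F, where both libraries are at 19.3.

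Regulators of SREBP2 moved in different directions. Srebf2, which encodes SREBP2 itself, was at 23.7 and 24.9 FPKM in DMSO, at 24.9 and 22.7 in 5C, at 28.1 and 26.7 in 5C-G, at 34.8 and 29.5 in 5C-C, at 39.0 and 47.2 in 5C-E and at 22.0 and 28.1 in 5C-F. The 5C-E libraries were the highest of the 13, with a log2 fold change against 5C of 0.79 ± 0.17 (adjusted p = 0.0146). With the offset this was 0.47 ± 0.13 (adjusted p = 0.0437), short of the fold limit, and the call was also lost without 5C A, 5C B or 5C-E B in turn. In 5C-C it was 0.60 ± 0.17 (adjusted p = 0.0103) and with the offset 0.29, not called. Scap, the carrier of SREBP2, varied little, from 9.96 to 14.6 FPKM, and was called nowhere.

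Insig2 (chr1:121181760-121260400, GRCm39) stood near its DMSO level when the ROCK or the protein kinase D inhibitor was left out. It was at 38.6 and 20.6 FPKM in 5C-G and at 34.1 and 28.8 in 5C-C, next to 34.8 and 33.3 in DMSO. Against 5C it fell by 1.04 on the log2 scale in 5C-G (SE 0.22, adjusted p = 0.00236) and by 0.90 in 5C-C (SE 0.22, adjusted p = 0.00392). With the offset the values were -0.88 ± 0.18 and -0.67 ± 0.18, and both calls were kept under every other test, filter and left-out library, with a highest adjusted p of 0.0345 and 0.0415, though the 5C-C value lies within a fold limit of 1. In 5C-E it was at 50.9 and 42.3 FPKM and in 5C-F at 56.0 and 43.7, between DMSO and 5C, and neither was called. Insig1, the paralogue that SREBP2 itself switches on, was at 49.7 and 51.1 FPKM in 5C, at 35.8 and 28.5 in 5C-G and at 35.2 and 25.3 in 5C-C. It fell by 0.52 (SE 0.19, adjusted p = 0.0499) and by 0.58 (SE 0.19, adjusted p = 0.0228) on the log2 scale. With the offset the call remained in 5C-C (-0.55 ± 0.16, adjusted p = 0.0216) and not in 5C-G (-0.47 ± 0.16, adjusted p = 0.0519).

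Proteins that move or store cholesterol were next. Stard4, which carries cholesterol between membranes, was at 15.0 and 14.7 FPKM in 5C, at 10.7 and 4.18 in 5C-G and at 6.73 and 5.69 in 5C-C. Its log2 fold changes of -0.90 ± 0.28 (adjusted p = 0.0261) and -1.09 ± 0.28 (adjusted p = 0.00606) became -0.52 and -0.46 with the offset, neither called. Its highest values were 18.9 and 17.4 FPKM in 5C-E. Soat1, which esterifies cholesterol for storage, was at 36.3 and 37.9 FPKM in 5C and at 22.6 and 15.5 in 5C-F, below all other libraries, the nearest of which was 5C-C B at 22.7. The log2 fold change in 5C-F was -0.86 ± 0.20 (adjusted p = 0.0128) and -0.51 ± 0.14 with the offset (adjusted p = 0.0263), both called, and the call was lost without 5C A, 5C B or 5C-F B, with a highest adjusted p of 0.125. Soat2, the isoform of hepatocytes and enterocytes, was at 4.74 and 3.88 FPKM in 5C and at 5.41 and 9.03 in 5C-F, and did not pass there (log2 fold change 0.84 ± 0.26, adjusted p = 0.0525).

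Lpin1 and Mylip fell in 5C-G, 5C-C and 5C-E. Lpin1 (chr12:16584818-16703913, GRCm39) encodes lipin 1, a phosphatidate phosphatase of triglyceride synthesis and a nuclear coregulator of lipid genes. It was at 16.5 and 14.3 FPKM in DMSO, at 16.2 and 14.5 in 5C, at 5.31 and 4.22 in 5C-G, at 4.75 and 3.77 in 5C-C, at 9.03 and 8.07 in 5C-E, at 11.7 and 10.8 in 5C-F and at 9.30 in the 5C-S library. The groups stood in the order DMSO and 5C, 5C-F, 5C-E, then 5C-G and 5C-C, with overlap within DMSO and 5C and within 5C-G and 5C-C. Against 5C the log2 fold change was -1.56 ± 0.18 in 5C-G (adjusted p = 1.1e-05), -1.69 ± 0.18 in 5C-C (adjusted p = 8.72e-06) and -0.91 ± 0.17 in 5C-E (adjusted p = 0.00602). With the offset it was -1.23, -1.21 and -0.96, all called. In 5C-F it was -0.35 and not called. The 5C-G and 5C-C calls held under every alternative run, while the 5C-E call was lost without 5C A, 5C B or 5C-E B in turn, with a highest adjusted p of 0.17.

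Mylip (chr13:45543215-45565501, GRCm39) encodes an LXR-induced ubiquitin ligase that sends lipoprotein receptors for degradation. It was at 15.3 and 16.2 FPKM in DMSO, at 19.7 and 19.1 in 5C, at 6.59 and 6.64 in 5C-G, at 7.53 and 4.27 in 5C-C, at 11.4 and 8.98 in 5C-E, at 12.9 and 8.99 in 5C-F and at 13.9 in the 5C-S library. Every library of a removal was below both DMSO libraries and both 5C libraries. The log2 fold change was -1.42 ± 0.25 in 5C-G (adjusted p = 0.000653), -1.56 ± 0.25 in 5C-C (adjusted p = 0.000201) and -0.998 ± 0.25 in 5C-E (adjusted p = 0.0338), and the offset left these at -1.41, -1.59 and -0.96. In 5C-F it was -0.72 ± 0.24 (adjusted p = 0.0689), and with the offset it was called at -0.78 ± 0.23 (adjusted p = 0.0364). The 5C-E call was lost in 7 of 13 alternatives, among them the loss of any of the 4 libraries compared. Lpin1 and Mylip both have a transcript GC content of 49.6%, near the middle of the genes tested.

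Both LXR receptors rose in 5C-G and 5C-C in the fit without the offset. Nr1h2, LXR beta, was at 22.0 and 19.9 FPKM in 5C, at 34.1 and 47.4 in 5C-G and at 44.3 and 49.0 in 5C-C, with log2 fold changes of 1.11 ± 0.24 (adjusted p = 0.00261) and 1.32 ± 0.24 (adjusted p = 0.000463). Its transcript has the highest GC content of the members, 61.2%, and with the offset the values were 0.51 ± 0.15 and 0.52 ± 0.15, still called and just beyond the fold limit. Without 5C-G B its adjusted p in 5C-G was 0.0515. Nr1h3, LXR alpha (chr2:91014394-91033417, GRCm39), was at 12.96 and 13.2 FPKM in DMSO, at 8.37 and 8.26 in 5C, at 10.8 and 16.6 in 5C-G, at 14.4 and 14.4 in 5C-C, at 6.43 and 8.05 in 5C-E and at 19.3 and 19.3 in 5C-F. The 5C-F libraries were above all others and the 5C-E libraries below all others. Against 5C its log2 fold change was 1.31 ± 0.23 in 5C-F (adjusted p = 0.00236), and this call held under every alternative run, at 0.96 ± 0.18 with the offset. In 5C-G and 5C-C it was 0.88 ± 0.23 (adjusted p = 0.0094) and 0.95 ± 0.23 (adjusted p = 0.00358), and with the offset 0.30 and 0.19, not called.

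Macrophages also express Nr1h3 and Soat1. All 12 macrophage markers were found in the tables, and at most 2 of them were at 0 in any library. The summed FPKM of the 12 macrophage markers was 608.5 and 690.2 in 5C, 5254 and 7431 in 5C-G, 1209 and 1888 in 5C-C, 791.8 and 958.4 in 5C-E, 1863 and 2209 in 5C-F and 722.1 in the 5C-S library. Both Nr1h3 and this sum were above 5C in the 5C-G, 5C-C and 5C-F libraries. In 5C-E the sum was above 5C as well, while Nr1h3 was below it. Soat1 was lower than in 5C where the sum was higher in 5C-F. In DMSO, 5C-G, 5C-C and 5C-E the sum was also higher, and Soat1 was not called between these groups and 5C. There it was at 35.5 and 36.3 FPKM in DMSO, 36.6 and 27.4 in 5C-G, 29.8 and 22.7 in 5C-C and 40.5 and 40.5 in 5C-E. The summed FPKM of the 8 hepatocyte markers was 10490 and 9338 in DMSO and 9898 and 9874 in 5C. It was 4730 and 5074 in 5C-G, 3682 and 2771 in 5C-C, 3004 and 2381 in 5C-E, 18770 and 13850 in 5C-F and 5496 in the 5C-S library. The sum for 10 stellate cell and fibroblast markers ran from 850.6 to 2313 over the libraries, that for 9 endothelial markers from 44.89 to 186.9 and that for 6 cholangiocyte markers from 1456 to 3423. The part of cell composition in the members' differences was not tested.

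Against DMSO, the removals showed whether a member stood away from the solvent level. These 4 comparisons share the DMSO libraries. In 5C-G, 5 members rose and 2 fell, against 7.61% and 6.85% of all genes tested. In 5C-C, 8 rose and 4 fell, against 16.9% and 19.5%. In 5C-E, 4 rose and 2 fell, against 3.29% and 5.33%, and in 5C-F, 6 rose and 1 fell, against 6.36% and 8.15%. The median log2 fold change of the 18 enzymes was 0.314 in 5C-G with 11 positive, 0.469 in 5C-C with 12, 0.539 in 5C-E with 16 and 0.54 in 5C-F with 17, next to medians over all genes between -0.00864 and 0.0112.

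In 5C-F the called members against DMSO were Acat2 (0.98 ± 0.19), Fdft1 (1.07 ± 0.18), Tm7sf2 (1.16 ± 0.21), Msmo1 (0.66 ± 0.18), Nsdhl (0.58 ± 0.18) and Cyp51 (0.52 ± 0.17) as higher and Soat1 (-0.88 ± 0.20) as lower, in log2 fold change ± SE. In 5C-E, Acat2 (0.75 ± 0.19), Fdft1 (0.71 ± 0.18), Cyp51 (0.68 ± 0.17) and Srebf2 (0.69 ± 0.17) rose and Lpin1 (-0.996 ± 0.17) and Nr1h3 (-0.9996 ± 0.23) fell. In 5C-C, Acat2 (1.19 ± 0.19), Fdft1 (1.38 ± 0.18), Mvk (1.499 ± 0.26), Mvd (1.68 ± 0.31) and Tm7sf2 (1.32 ± 0.21) were among those that rose, and Idi1 (-1.16 ± 0.31) and Lpin1 (-1.77 ± 0.18) among those that fell. In 5C-G, Mvk (1.44 ± 0.26) and Tm7sf2 (0.92 ± 0.21) rose and Lpin1 (-1.64 ± 0.18) and Mylip (-1.19 ± 0.25) fell, each with and without the offset. With the offset 5C-E had 10 members higher and 4 lower against DMSO, where 4.02% and 6.51% of all genes were called in that fit. With it 5C-F had 9 and 1, against 7.06% and 7.66%. In 5C-C there were 7 and 4, against 14.7% and 13.7%, and in 5C-G 4 and 3, against 6.31% and 3.93%. The counts in 5C-G, 5C-E and 5C-F moved by more than 1.5 times without single libraries: without DMSO A or DMSO B they were 2 and 1 in 5C-G, 1 and 1 in 5C-E, and 3 and 3 in 5C-F. They were 2 without 5C-G B, 11 without 5C-G A, 2 without 5C-E B and 4 without 5C-F A.

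Single libraries also decided part of the counts against 5C. In 5C-G the 13 called members became 6 without 5C A, 8 without 5C B, 5 without 5C-G B and 16 without 5C-G A. In 5C-C the 18 became 13 to 20. In 5C-E the 3 became 0 without 5C A, 5C B or 5C-E B, and in 5C-F the 3 became 1 without 5C A, 5C B or 5C-F B and 7 without 5C-F A. Called whichever library was left out were Mvk, Insig2, Lpin1 and Mylip in 5C-G, Nr1h3 in 5C-F, and 12 of the 18 in 5C-C, among them Mvk, Pmvk, Idi1, Fdft1, Ebp, Insig2, Lpin1, Mylip and Nr1h2. For each comparison, only libraries of the compared groups were left out in turn, and fits without a library of another group were not examined. The lone library left in a group is assumed in these fits to vary like the other groups.

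The 5C-S library, which lacked Salidroside, has no replicate, and its differences from 5C carry no test. No member differed from the mean of the 5C libraries by more than 1 on the log2 CPM scale (CPM, counts scaled to library size), while 8.1% of all genes were higher and 7.35% lower by that much. The members furthest from 5C were Idi1 at -0.95, Lpin1 at -0.74, Nr1h3 at 0.63 and Mvk at 0.57. With the GC and length offset these were -0.64, -0.56, 0.29 and 0.28. Insig2, at 63.2 FPKM, was next to 68.1 and 63.2 in 5C.

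The log2 fold changes were also set against the GC content of the transcript, a property the choice of members did not use. They were higher at higher GC content in 5C-G, 5C-C and 5C-F against 5C, less clearly so in 5C-E, and lower in 5C against DMSO. Over the 29 members the Spearman correlation between log2 fold change and transcript GC content stood at 0.752 when the ROCK inhibitor was left out, at 0.804 without the protein kinase D inhibitor, at 0.385 without ETC-1002 and at 0.761 without forskolin, and -0.539 in 5C against DMSO. Over 19787 genes it was 0.349, 0.411, 0.315, 0.262 and -0.181 in the same order. These are correlations across genes that share libraries, given as a description. Lpin1 and Mylip, both at 49.6%, had the largest falls among the members in 5C-G without lying at the low end. In 5C-C the largest fall was that of Idi1 (-1.92), followed by Lpin1 (-1.69) and Mylip (-1.56). Idi1 had the lowest GC content of the members, 39%, and Mvk, Pmvk, Mvd and Nr1h2 had 56.1%, 57%, 59.4% and 61.2%. With the offset the members' correlations were 0.47, 0.437, -0.0443, 0.449 and -0.383, so that it removed part of the relation among the members, while over all genes they were 0.0474, 0.0441, 0.0301, 0.0317 and -0.0441. The part of GC content in the members' differences was not tested further.

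**Figure D4:**
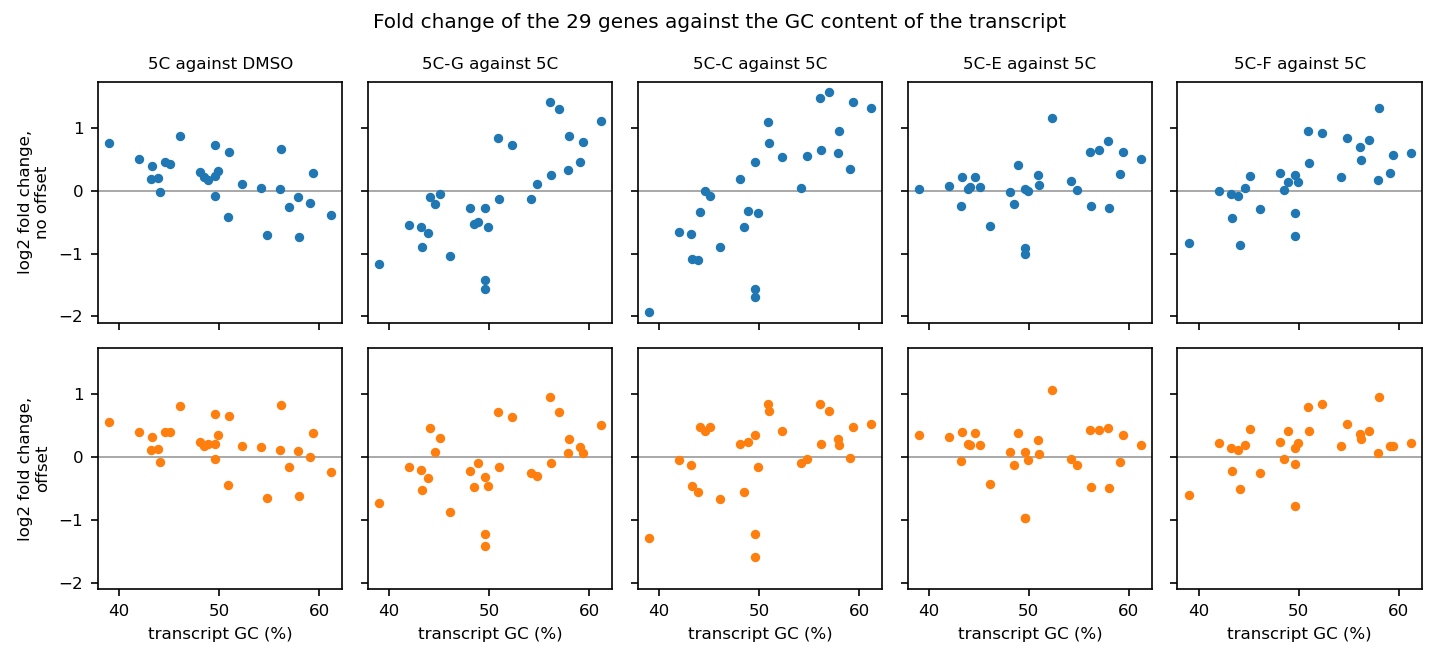
The log2 fold change (y axis) of each of the 29 genes against the GC content of its transcript in percent (x axis) in 5 comparisons, without the offset in the upper row and with the GC and length offset in the lower row. In 5C-G, 5C-C and 5C-F the points climb from left to right in the upper row and less steeply in the lower row.

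How alike the members were across the 13 libraries was described by the correlation of a member's log2 CPM with the mean of the other enzymes. The libraries share groups, and no test was made. Cyp51 (r = 0.799), Acat2 (0.786), Msmo1 (0.772), Nsdhl (0.758) and Fdft1 (0.735) followed the other enzymes most closely. Idi1 (-0.236), Sc5d (-0.152) and Hsd17b7 (-0.0925) did not, and among the regulators Soat1 (-0.468), Mylip (-0.439) and Lpin1 (-0.359) ran against them. After subtraction of the offset, Lss (0.908), Cyp51 (0.889), Msmo1 (0.857), Acat2 (0.849) and Nsdhl (0.812) were highest. Hmgcs1 stood at 0.338 before and 0.798 after, and Idi1 remained at -0.147. Sc5d and Hsd17b7 turned to 0.302 and 0.121, Soat1 stood at -0.103, and Mylip (-0.528) and Lpin1 (-0.395) still ran against the enzymes.

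Genes next to the pathway were followed in 3 lists. Of 8 genes of the isoprenoid branch, which makes the longer isoprenoids for protein anchors and ubiquinone, 2 fell in 5C-C, 1 fell in 5C-F and none was called in the other comparisons, next to 18.2% and 4.98% of all genes that fell there. With the offset none fell, and 1 was higher in 5C-G and in 5C-C, next to 11.6% and 12.6% of all genes in that fit. Ggps1 (geranylgeranyl diphosphate synthase) was at 10.5 and 8.44 FPKM in 5C, 5.21 and 4.36 in 5C-C and 5.92 and 4.81 in 5C-F. Its log2 fold changes of -0.82 ± 0.19 and -0.71 ± 0.19 were not called with the offset (-0.07 and -0.40). In 5C-G it was at -0.52 ± 0.19 and did not pass (adjusted p = 0.0552), but DESeq2 and limma on FPKM, among other alternatives, called it. With the offset its value there was 0.007. The other gene that fell in 5C-C was Pdss1, a ubiquinone side-chain synthase, at -1.27 ± 0.44, which was not called with the offset (-0.97). The gene called with the offset alone was Pggt1b, a subunit of the enzyme that attaches geranylgeranyl groups to proteins. It was at 4.59 and 3.98 FPKM in 5C, 4.24 and 3.91 in 5C-G and 3.95 and 3.42 in 5C-C. Its log2 fold changes of 0.06 and -0.05 became 0.84 and 1.06. Without 5C A the Ggps1 call was lost in 5C-C and in 5C-F, where it was also lost without 5C B or 5C-F B, and the Pdss1 call was lost without 5C A, 5C B or 5C-C A.

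Of 7 genes of SREBP processing and INSIG turnover, 3 fell in 5C-C and 2 in 5C-G, and none rose, next to 18.2% and 11.4% of all genes that fell. With the offset none fell in 5C-G and 2 fell in 5C-C, next to 7.7% and 10.9% of all genes in that fit. Of the 3 that fell in 5C-C without it, Rnf139 alone was called with it. Mbtps2, the second protease that releases SREBP, was at 4.44 and 3.93 FPKM in 5C, 2.92 and 1.66 in 5C-G and 1.77 and 1.38 in 5C-C. It fell by 0.76 ± 0.23 in 5C-G and by 1.25 ± 0.24 in 5C-C on the log2 scale, and stood at -0.07 and -0.21 with the offset. Rnf139, a ubiquitin ligase that binds INSIG proteins, was at 9.17 and 9.83 FPKM in 5C and at 4.63 and 3.04 in 5C-C, a log2 fold change of -1.15 ± 0.27 that was kept at -0.72 with the offset. In 5C-G, Rnf139 fell by 0.87 ± 0.27 and was not called with the offset (-0.59), and there the calls of Mbtps2 and Rnf139 were both lost without 5C A, 5C B or 5C-G B.

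Of 11 genes of cholesterol efflux and transport, 2 fell in 5C against DMSO, 3 rose and 1 fell in 5C-G, 4 rose and 1 fell in 5C-C, 1 fell in 5C-E and none was called in 5C-F against 5C. With the offset 2 fell in 5C against DMSO, 2 rose and none fell in 5C-G, 2 rose and 1 fell in 5C-C, 2 fell in 5C-E and none was called in 5C-F. The shares of all genes are those given above for the members.

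The gene of this list that fell in 5C-G, 5C-C and 5C-E was Abca1, the LXR-induced transporter that loads cholesterol onto apolipoprotein A-I. It was at 20.8 and 20.1 FPKM in DMSO, at 17.5 and 16.3 in 5C, at 9.84 and 6.39 in 5C-G, at 4.74 and 3.63 in 5C-C, at 10.5 and 6.85 in 5C-E, at 11.3 and 7.28 in 5C-F and at 10.3 in the 5C-S library. Every library of a removal was below all libraries of DMSO and 5C, and those of 5C-C were the lowest. Against 5C its log2 fold change was -0.94 ± 0.24 in 5C-G (adjusted p = 0.00903), -1.85 ± 0.25 in 5C-C (adjusted p = 6.47e-05) and -1.03 ± 0.24 in 5C-E (adjusted p = 0.0262). The values with the offset were -0.52 (not called), -1.23 and -1.03 (both called). The 5C-F value of -0.75 ± 0.24 did not pass (adjusted p = 0.0564). It was called with DESeq2 and with only the compared groups in the fit, among other alternatives, but not with the offset (-0.47) or limma on FPKM. The 5C-C call held under every alternative run. The 5C-G call was lost without 5C A or 5C-G B and the 5C-E call without 5C A, 5C B or 5C-E B, which limma on FPKM also lost, with a highest adjusted p of 0.108 and 0.511 over the alternatives. Npc1, the lysosomal membrane protein that exports cholesterol, was at 9.85 and 8.47 FPKM in DMSO and 4.97 and 4.51 in 5C. It fell by 1.03 ± 0.30 on the log2 scale (adjusted p = 0.0479), by 0.96 with the offset, and the call was lost in 9 of 13 alternatives, among them leaving out any of the 4 libraries.

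Abcg1, an LXR-induced exporter that macrophages express strongly, was at 6.74 and 5.81 FPKM in DMSO, 1.76 and 2.00 in 5C, 2.75 and 3.65 in 5C-G, 1.47 and 0.79 in 5C-C, 1.01 and 1.17 in 5C-E and 2.89 and 2.44 in 5C-F. It fell by 1.81 ± 0.28 in 5C against DMSO and rose by 0.92 ± 0.27 in 5C-G against 5C on the log2 scale. In 5C-C (-0.58), 5C-E (-0.86) and 5C-F (0.61) it was not called, and in 5C-E it was called with the offset (-1.002). The macrophage marker sum was lower in 5C than in DMSO and higher than 5C in all 4 removals with 2 libraries. Abcg1 was above 5C in both libraries of 5C-G and 5C-F and below it in both of 5C-C and 5C-E, and the part of the sum was not tested. The 5C-G call was lost without 5C A, 5C B or 5C-G B and with limma on FPKM. Npc2, the lysosomal cholesterol carrier, was at 111.1 and 122.9 FPKM in 5C, 183.2 and 225.1 in 5C-G and 214.0 and 276.7 in 5C-C. Its log2 fold changes of 0.95 ± 0.18 and 1.24 ± 0.19 were kept with the offset, at 0.92 and 1.22.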

How the data were processed

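RNA was sequenced by the authors as paired-end reads of 150 bases on a NovaSeq instrument and mapped to GRCm39. The processing notes name featureCounts, Subread and DESeq2, with no versions. The authors deposited whole-number counts per gene, not normalized, and FPKM per gene. The deposited FPKM values gave 1 length per gene within 0.2% for 27140 of 27141 genes. The number of unused columns was 0. Handling of strand is not given in the sources used here, so antisense overlaps are not resolved.

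Groups came from the labels. Counts were tested with edgeR 4.0.16 (R 4.3.3): TMM, filterByExpr (minimum count 10), 1 quasi-likelihood fit of all 13 libraries by group (6 residual degrees of freedom, common coefficient of variation 0.261), and Benjamini-Hochberg adjustment over 19884 genes. The study's methods name DESeq, and its list of resources gives DESeq2 with a version. DESeq2 1.42.0 and limma 3.58.1 on log2(FPKM + 1) and log2(FPKM + 0.1) were alternatives. Fits without single libraries were others, and for each comparison these covered only the libraries of the compared groups. The 5C-S difference used log2 CPM with a prior count of 2. The offset was the fit of each library's log2 CPM deviations on splines (5 degrees of freedom) of GC content (GENCODE M39 transcripts, GRCm39) and length. GC content was known for 19787 genes.

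The members, the gene lists and the offset were chosen with earlier results of these data known. All 29 members are described by role. The 4 promoters printed were chosen after values had been seen. FPKM per library is given for members called in at least 1 of the 5 main comparisons, and genes of the other lists are named where called with the largest fold change of their list in a direction. Npc1 and Pggt1b were named after values had been seen. A result for 1 gene of these lists is not reported here. The scripts were tested on simulated data. SEs are edgeR's log2 fold change divided by the root of its F statistic.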

Additional observations from a re-analysis of the deposited data

How the results depend on the processing

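The direction of no called member turned under any alternative run. Outside the members, Pggt1b in 5C-C turned from -0.05 to 1.06 with the offset. For single genes in the 9 comparisons, 31 of 72 calls held whichever library was left out, 41 were lost in at least 1 such fit and 16 were added in at least 1. These fits left out only libraries of the compared groups. In its single fit per comparison, the GC and length offset ended 22 calls and added 21. DESeq2 ended 0 and added 17. Counts of called members moved by more than 1.5 times as follows; the cause was not tested. In 5C against DMSO (3 called), DESeq2 and the offset gave 5, every gene kept 6, only the compared groups in the fit 8, and a log2 limit of 1 gave 0, as did each left-out library (0 to 0). In 5C-G against 5C (13), the offset gave 8 and the limit of 1 gave 7, with 5 to 16 over left-out libraries. In 5C-C against 5C (18), the offset and the limit of 1 each gave 10. In 5C-E against 5C (3), only the compared groups gave 6 and the limit of 1 gave 0, with 0 to 2 over left-out libraries. In 5C-F against 5C (3), DESeq2 and only the compared groups gave 6, every gene kept 9 and the limit of 1 gave 1, with 1 to 7 over left-out libraries. Against DMSO, 5C-G (7) had 4 with limma on either FPKM scale and 1 to 11 over left-out libraries. 5C-E (6) had 10 with DESeq2 and with total counts only, 13 with every gene kept, 16 with only the compared groups, 14 with the offset and 0 with the limit of 1, with 1 to 6 over left-out libraries. 5C-F (7) had 12 with every gene kept, 11 with only the compared groups and 2 with the limit of 1, with 3 to 6 over left-out libraries. The 23 members differing over the 6 groups became 19 to 26, the 5C-S count was 0 throughout, and the numbers of member genes with the sterol element, the E-box form, the NF-Y box and the GC box were 1, 5, 19 and 19 in the 250 bases before the start, next to 1, 5, 19 and 20 in the whole window. The alternatives against DMSO, those of the F test, those of the genes outside the members and the offset for 5C-S were added after seeing the data. No paired analysis was possible because the groups compared share fewer than 2 replicate numbers in the labels.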
